A study of Mus musculus with 7 samples.

Results

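The IL1 family is a set of secreted cytokines with their receptors and natural inhibitors. The 10 genes described here were taken by name: the ligands Il1a, Il1b, Il18 and Il33, the inhibitors Il1rn, Il1r2 and Il18bp, and the receptor chains Il1r1, Il1rap and Il1rl1. They are 10 of the 53465 genes in the table, and all 10 were among the 15645 genes with enough counts to be tested between the primary tumors. The RNA came from tumors of EMT6, a mammary carcinoma line of the mouse, grown in Balb/c mice after 500000 cells had been placed in a mammary fat pad. EMT6-P tumors (parental, n = 3) grew under an isotype control antibody, and EMT6-PTR tumors (treatment-resistant, written PDR in the sample labels, n = 3) grew under αPD-L1 antibody. Both antibodies were given at 250 μg per mouse every 3 days until the mice reached endpoint. The remaining library is 1 metastasis of the resistant variant, with no replicate and with no organ named in its labels. The mice were young adult females, and the study describes the resistant variant as selected from tumors that grew again under treatment.

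In this family, IL1α (Il1a) and IL1β (Il1b) bind the receptor IL1R1 (Il1r1), which signals only together with the accessory chain IL1RAP (Il1rap). The receptor antagonist IL1RN (Il1rn) occupies IL1R1 without signaling, and IL1R2 (Il1r2) is a decoy that captures IL1 and passes on no signal. IL33 (Il33) is a nuclear alarmin released from damaged epithelial, endothelial and fibroblast-like cells, and its receptor ST2 (Il1rl1) uses the same accessory chain and sits on mast cells, regulatory T cells and innate lymphoid cells. IL18 (Il18) is cut into its active form by inflammasomes, signals through IL18R1 and IL18RAP, and is captured in solution by IL18BP (Il18bp).

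Some libraries stood apart, and their values are given first because they touch the results. Total estimated counts ranged from 20430110 to 25213472 per library. In EMT6-PTR replicate 3 the summed level of 8 carcinoma epithelial markers was 594 CPM (counts scaled to 1e6 per library by the upper quartile), against 2099 to 2336 CPM in the other primary tumors. In the same tumor the summed level of 12 fibroblast markers was 21441 CPM, against 5860 to 7819 CPM in EMT6-P and 6896 and 9558 CPM in EMT6-PTR replicates 1 and 2. EMT6-PTR replicate 1 held 4300 CPM of 8 skeletal muscle genes, against at most 660 CPM in the other libraries, and EMT6-PTR replicate 2 had 13.8% of its counts on the gene CT010467.1. The metastasis held 8796 CPM of 10 lung genes, against 5.06 to 27.4 CPM in the primary tumors. No batch is given in the labels.

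The 250 bases before 4 transcription starts are printed here, because they belong to Il1a and Il1b, whose levels had the same order of tumors within each group, and to Il33, whose level set the groups apart. Il33 has a distal and a proximal start, and which of them was used cannot be read from counts per gene. The sequences are from RefSeq on GRCm38.p6, are written 5′ to 3′ in the direction of the gene, and end at the base before the start. Capitals mark matches on either strand to the TATA box, the AP-1 motif or the C/EBP motif, whose letters follow.
Il1a, chr2:129309973-129310222, minus strand: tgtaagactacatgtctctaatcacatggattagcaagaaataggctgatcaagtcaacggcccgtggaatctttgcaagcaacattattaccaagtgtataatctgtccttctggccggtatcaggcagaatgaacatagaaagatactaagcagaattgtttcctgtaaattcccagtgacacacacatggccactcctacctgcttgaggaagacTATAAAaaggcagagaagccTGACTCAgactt
Il1b, chr2:129371140-129371389, minus strand: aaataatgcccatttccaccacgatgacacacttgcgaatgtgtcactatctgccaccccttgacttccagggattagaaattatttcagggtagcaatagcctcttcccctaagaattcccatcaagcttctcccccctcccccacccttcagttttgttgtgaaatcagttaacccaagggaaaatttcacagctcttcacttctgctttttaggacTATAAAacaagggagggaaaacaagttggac
Il33 distal start, chr19:29924863-29925112, plus strand: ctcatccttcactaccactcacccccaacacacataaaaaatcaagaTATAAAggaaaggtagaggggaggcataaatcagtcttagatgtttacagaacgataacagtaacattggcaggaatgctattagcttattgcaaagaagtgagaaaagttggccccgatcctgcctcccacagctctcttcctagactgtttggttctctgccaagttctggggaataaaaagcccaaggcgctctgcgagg
Il33 proximal start, chr19:29945540-29945789, plus strand: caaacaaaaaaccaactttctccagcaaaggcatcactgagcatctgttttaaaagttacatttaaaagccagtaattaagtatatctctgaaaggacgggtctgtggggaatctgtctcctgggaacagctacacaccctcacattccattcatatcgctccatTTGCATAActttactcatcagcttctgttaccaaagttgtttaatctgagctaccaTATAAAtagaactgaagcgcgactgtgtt

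The TATA box, written TATAAA, was close to the start in both IL1 genes and at the proximal Il33 start: its first base lay 32 bases before the start in Il1a, 31 in Il1b and 29 in Il33. At the distal Il33 start the same letters lay 203 bases before it. They were found in 12.4% of 32841 windows of the same length. Il1a also had the AP-1 motif, TGANTCA, 12 bases before the start, which 6.75% of windows held. The proximal Il33 window had the C/EBP motif, TTGCNNAA, 85 bases before the start, which 9.57% of windows held. An interferon-response motif, GAAANNGAA, held by 7.13% of windows, was in 0 of the 15 windows of the 10 members. An NF-kB motif, GGGNNNTTC, held by 11.8% of windows, was in 1 window each of Il1rn and Il1r1. Each motif was searched on both strands, and no matches overlapped in the printed windows. A match describes letters and not binding.

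**Figure D1:**
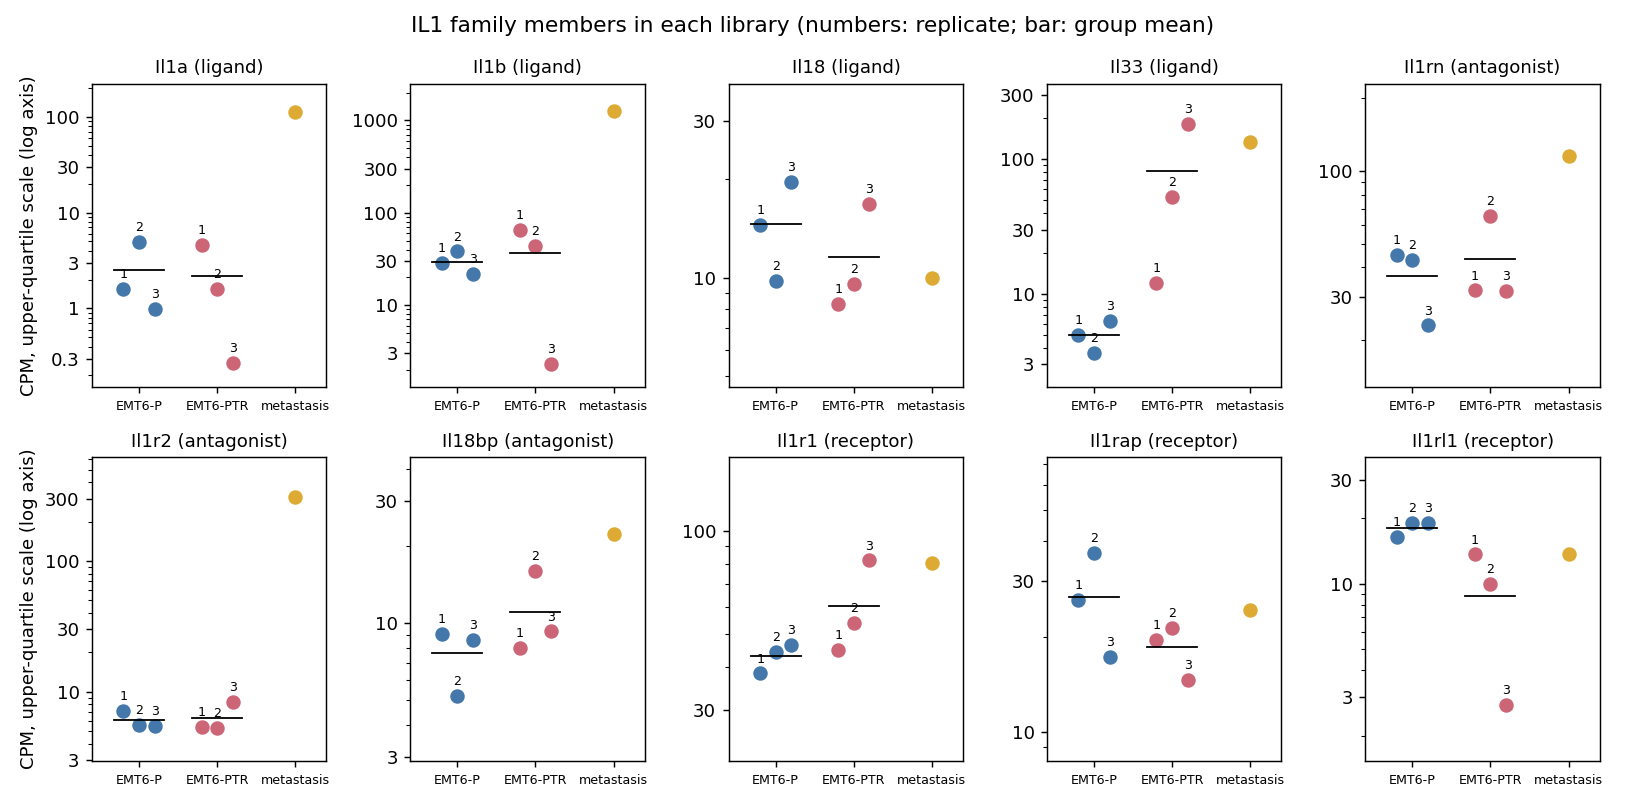
Level of each member in each library, in CPM on the upper-quartile scale (log axis, a separate range per panel), for 3 EMT6-P tumors (blue), 3 EMT6-PTR tumors (red) and the metastasis (yellow); numbers are replicates and bars are group means. Il33 is higher and Il1rl1 lower in all 3 EMT6-PTR tumors, and Il1a, Il1b and Il1r2 are at 111, 1252 and 311 CPM in the metastasis.

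Between EMT6-PTR and EMT6-P tumors, Il33 and its receptor Il1rl1 were the only members of the 10 whose groups did not overlap, Il33 being higher and Il1rl1 lower. Among all genes tested, 9.52% did not overlap with EMT6-PTR higher and 11.8% with EMT6-PTR lower. The other 8 members overlapped. In edgeR's quasi-likelihood test, adjusted by Benjamini-Hochberg over 15645 genes, 0 of 10 members passed an adjusted p of 0.05, and 0.0% of all genes did. At an unadjusted p under 0.05, edgeR had 1 member (Il33) against 11.4% of all genes. DESeq2 called 1 member, again Il33, against 1.8% of all genes, and limma-voom called 0 of 10 against 0.0% of all genes, with 2 members at an unadjusted p under 0.05 against 10.4%. A fold change of at least 2 was seen upward for 1 member (Il33), against 6.27% of all genes, and downward for 1 (Il1rl1), against 1.29%. Of the 10 fold changes, 6 were above 0, and the median of all 10 was 0.15 on the log2 scale, against 52.3% and 0.03 over all genes. The labels give only replicate numbers. The study's legend counts replicates as technical unless stated otherwise, and it does not call those of this sequencing biological. Whether each library came from a separate tumor is therefore not known. The libraries are called tumors here, and p-values measure the spread between them. In bulk tissue, fewer cells of a type and less RNA per cell cannot be told apart.

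Il33 (chr19:29925114-29960718, GRCm38) stood at 4.94, 3.67 and 6.28 CPM in EMT6-P replicates 1 to 3 and at 12.1, 52.7 and 181 CPM in EMT6-PTR replicates 1 to 3. All 3 EMT6-PTR tumors were above all EMT6-P tumors, but they differed among themselves by 14.9-fold, against 1.71-fold within EMT6-P. Relative to the EMT6-P mean, the 3 tumors were 2.45, 10.6 and 36.5-fold higher. The fitted log2 fold change was 4.04 (SE 0.96, edgeR, adjusted p = 0.421). DESeq2 gave 4.07 with an adjusted p of 0.000151, and over 13 alternatives the adjusted p of Il33 ranged from 0.000151 to 0.865. Without EMT6-PTR replicate 3 the log2 fold change was 2.70 (edgeR, adjusted p = 0.125), and the groups still did not overlap. The metastasis held 133 CPM, inside the range of the EMT6-PTR tumors. The study placed Il33 in a preliminary list of genes that rose with treatment, chosen on these samples, so that list is not independent evidence of its direction.

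The fibroblast markers were highest in the tumor where Il33 was highest. Of the 12 fibroblast markers tested, 10 had log2 fold changes above 0 with a median of 1.37, against 52.3% and 0.03 over all genes. By edgeR 3 had an unadjusted p under 0.05, against 11.4% of all genes, and none was at 0 counts in any library. DESeq2 called 1 of the 12, against 1.8% of all genes. It was Pi16, a marker of adventitial fibroblasts, which stood at 3.25, 3.07 and 4.78 CPM in EMT6-P and at 7.64, 19.6 and 44.3 CPM in EMT6-PTR replicates 1 to 3. In EMT6-PTR replicate 1 the summed fibroblast level was inside the EMT6-P range, while Pi16 was 2.06-fold and Il33 2.45-fold above the EMT6-P mean. The part of fibroblasts in the Il33 result was not tested.

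Il1rl1 (chr1:40429570-40465415), the receptor for IL33, was at 16.3, 19.0 and 18.9 CPM in the EMT6-P tumors and at 13.6, 9.97 and 2.76 CPM in the EMT6-PTR tumors. The EMT6-P tumors lay close together and all above the EMT6-PTR tumors, of which replicate 3, the highest for Il33, was the lowest. The group mean was 2.06-fold higher in EMT6-P. The log2 fold change was -1.04 (SE 0.53, edgeR, adjusted p = 0.479), changing to -0.62 once EMT6-PTR replicate 3 was dropped. The gene is transcribed into a membrane receptor and a soluble decoy, and counts per gene do not separate them. The study held Il1rl1 in a preliminary list of genes that fell with treatment, chosen on these samples.

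The cells known to answer IL33 were described by fixed marker lists. Of 10 mast cell and basophil markers, 4 were tested, and their summed level was 10.4 to 18.2 CPM in EMT6-P and 11.8 to 19.5 CPM in EMT6-PTR. In EMT6-PTR replicate 3, 5 of the 10 were at 0 counts. Of the 4 tested, 2 had log2 fold changes above 0 and 2 below, against 52.3% above 0 over all genes. Hdc had the smallest p of this list (log2 fold change 1.24, SE 0.46, edgeR, adjusted p = 0.427). Of 10 markers of regulatory T cells and of lymphocytes that make IL5 and IL13, 7 were tested, 6 of them with log2 fold changes below 0, and edgeR called 0 of either list. Gata3, a transcription factor of such lymphocytes, had the smallest p of the lymphocyte list, with a log2 fold change of 1.55 (SE 0.62, edgeR, adjusted p = 0.433). The summed level of the lymphocyte list was 291, 316 and 287 CPM in EMT6-P and 299, 263 and 136 CPM in EMT6-PTR, so that EMT6-PTR replicates 2 and 3 lay below every EMT6-P tumor, and replicate 3 was the lowest, as for Il1rl1. Most of that sum was Rora, which many other cells also express, with a mean of 235 CPM in EMT6-P. The part of ST2-bearing cells in the Il1rl1 values was not tested.

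The ratio of receptor to ligand within a library does not depend on the scaling. Per kilobase of exon, the log2 ratio of Il1rl1 to Il33 was 0.46, 1.11 and 0.33 in EMT6-P and -1.09, -3.65 and -7.28 in EMT6-PTR. Per kilobase, receptor RNA exceeded ligand RNA in every EMT6-P tumor and was below it in every EMT6-PTR tumor. In EMT6-PTR replicate 1 that order depends on the exon length taken, since the estimated counts were 314 for Il1rl1 and 280 for Il33. The difference of the means was -4.64 (exact two-sided permutation test, p = 0.1, adjusted over 4 ratios 0.267), and 0.1 is the smallest p that 3 against 3 tumors allow. Without EMT6-PTR replicate 3 it was -3.01. The metastasis had a log2 ratio of -4.54.

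The IL1 ligands showed no common shift. Il1b (chr2:129364570-129371139, minus strand) was at 28.5, 38.1 and 22.0 CPM in EMT6-P and at 65.5, 43.5 and 2.33 CPM in EMT6-PTR. Replicates 1 and 2 of EMT6-PTR were above all EMT6-P tumors, and replicate 3 was far below them. The log2 fold change was 0.33 (SE 0.95, edgeR, adjusted p = 0.902), it turned to -0.38 without EMT6-PTR replicate 1 and was 0.88 without replicate 3, and limma-voom gave -0.73.

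Il1a (chr2:129299610-129309972, minus strand), its neighbor, was the lowest member per kilobase in both groups. It stood at 1.60, 4.97 and 0.985 CPM in EMT6-P and at 4.60, 1.61 and 0.272 CPM in EMT6-PTR, the last value resting on 7.11 estimated counts. The groups overlapped, and EMT6-PTR replicate 3 was again the lowest. The log2 fold change of Il1a was -0.22 (SE 1.01, edgeR, adjusted p = 0.940), with opposite signs when EMT6-P replicate 2 or EMT6-PTR replicate 3 was left out (0.74 and 0.31). Exons of Il1a and Il1b share 222 and 25 bases with genes on the opposite strand, Gm14023 and Il1bos, and the strand setting of the counting is not given in the sources used here.

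Il1rn (chr2:24336853-24351494), the receptor antagonist, was at 44.9, 42.8 and 23.0 CPM in EMT6-P and at 32.1, 65.4 and 31.9 CPM in EMT6-PTR. The ranges overlapped, with the highest value in EMT6-PTR replicate 2 and the lowest in EMT6-P replicate 3. The log2 fold change was 0.22 (SE 0.38, edgeR, adjusted p = 0.819), and from -0.20 to 0.40 with single tumors left out. The study holds Il1rn in its signature of secreted genes that increase with resistance. That signature used tumor RNA sequencing, and also a protein array and quantitative PCR on cultured EMT6-P and EMT6-PTR cells. It further drew on a database of interferon-regulated genes and on a decrease in EMT6-PTR cells after knockdown of the interferon receptor IFNAR1. The part of the choice made on these samples is not independent evidence of its direction, and the cultured cells were not examined here. Per kilobase, the log2 ratio of Il1rn to Il1b was -0.88, -1.37 and -1.47 in EMT6-P and -2.56, -0.95 and 2.23 in EMT6-PTR. Per kilobase, ligand RNA exceeded antagonist RNA in every primary tumor except EMT6-PTR replicate 3, where the order was turned. That order depends on the exon length taken for each gene. In estimated counts, Il1rn had 927, 922 and 490 and Il1b 589, 820 and 469 in EMT6-P. In EMT6-PTR, Il1rn had 740, 1180 and 822 and Il1b 1509, 785 and 60. The groups differed by 0.81 (exact permutation test, p = 0.8, adjusted 0.8), and by -0.52 without EMT6-PTR replicate 3.

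Of the genes for IL1-binding receptors, Il1r2 differed little among the primary tumors, and Il1r1 was highest in EMT6-PTR replicate 3. Il1r1 (chr1:40225080-40317257) was at 38.3, 44.2 and 46.2 CPM in EMT6-P and at 44.8, 53.7 and 81.8 CPM in EMT6-PTR, a log2 fold change of 0.49 (SE 0.24, edgeR, adjusted p = 0.471). Its groups overlapped only through EMT6-PTR replicate 1, which lay below EMT6-P replicate 3. The decoy Il1r2 (chr1:40074079-40125231) was at 7.17, 5.53 and 5.44 CPM in EMT6-P and at 5.34, 5.32 and 8.35 CPM in EMT6-PTR (log2 fold change 0.07, SE 0.28, edgeR, adjusted p = 0.935). The log2 ratio of decoy to signaling receptor, per kilobase, was between -1.34 and -0.67 in EMT6-P and between -1.59 and -1.33 in EMT6-PTR, a difference of -0.40 (exact permutation test, p = 0.2, adjusted 0.267).

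The shared accessory chain Il1rap (chr16:26581704-26730117) was at 26.1, 36.7 and 17.3 CPM in EMT6-P and at 19.6, 21.3 and 14.6 CPM in EMT6-PTR. The groups overlapped, and EMT6-PTR replicate 3 was the lowest tumor. Its log2 fold change was -0.53 (SE 0.30, edgeR, adjusted p = 0.510). Its exons share 552 bases with Gm20319 on the opposite strand.

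In the IL18 branch, neither the ligand nor its inhibitor separated the groups. Il18 (chr9:50554827-50581840) was at 14.5, 9.76 and 19.6 CPM in EMT6-P and at 8.33, 9.58 and 16.7 CPM in EMT6-PTR (log2 fold change -0.34, SE 0.37, edgeR, adjusted p = 0.710). Il18bp (chr7:102014885-102018690, minus strand) was at 9.06, 5.20 and 8.58 CPM in EMT6-P and at 7.98, 16.0 and 9.29 CPM in EMT6-PTR (log2 fold change 0.54, SE 0.35, edgeR, adjusted p = 0.555). EMT6-PTR replicate 2 had the highest Il18bp of the primary tumors. Exons of Il18bp share 80 bases with Numa1 on the opposite strand. The log2 ratio of Il18bp to Il18 per kilobase was -2.23, -2.45 and -2.74 in EMT6-P and -1.61, -0.81 and -2.40 in EMT6-PTR. The ratio was below 0 in all 6 tumors, its groups overlapped, and they differed by 0.86 (exact permutation test, p = 0.2, adjusted 0.267).

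**Figure D2:**
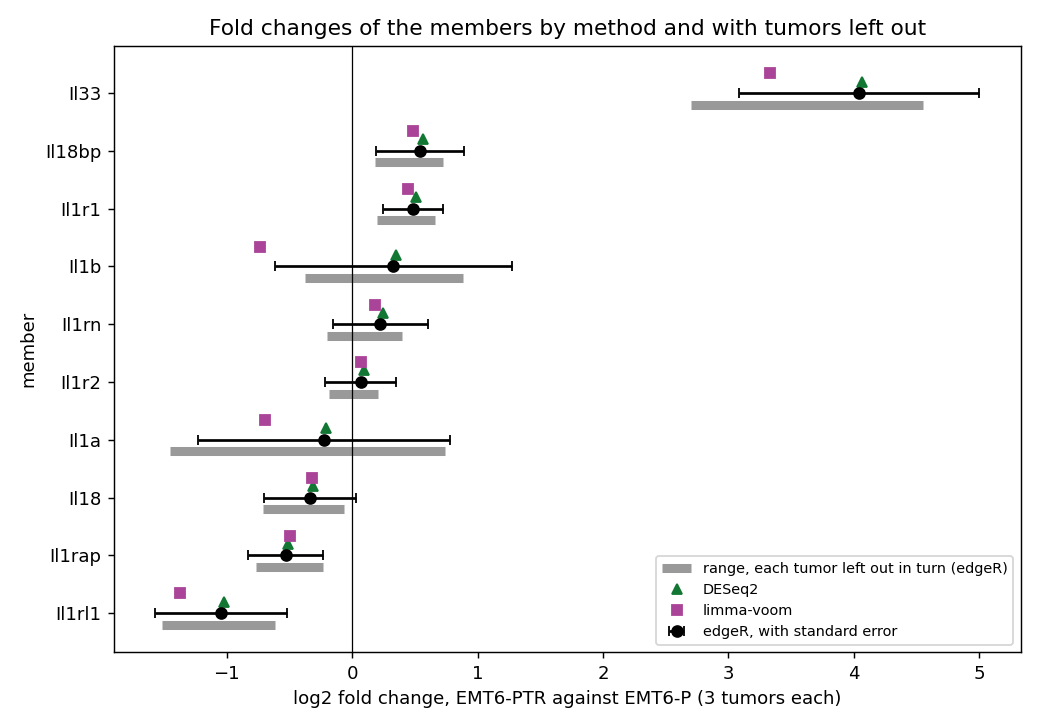
Log2 fold change of each member, EMT6-PTR against EMT6-P (3 tumors each), by edgeR with its standard error (black), DESeq2 (green triangles) and limma-voom (purple squares), with the range when each tumor is left out in turn (grey). Il33 lies at 4.04 with a range of 2.70 to 4.55, and the ranges of Il1a, Il1b, Il1rn and Il1r2 cross 0.

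Of 11 other family genes, 4 were tested between the groups, and 6 were at 0 counts in every primary tumor, which allows up to 3 counts per library. Il18r1 (chr1:40465552-40500854), the ligand-binding IL18 receptor chain, is the neighbor of Il1rl1 and was called higher in EMT6-PTR by DESeq2, not by edgeR. It was at 1.45, 0.790 and 0.610 CPM in EMT6-P and at 9.02, 33.0 and 21.6 CPM in EMT6-PTR, with no overlap. The log2 fold change was 4.47 (SE 0.60, edgeR, adjusted p = 0.421), and DESeq2 gave an adjusted p of 3.31e-11, in a range of 3.31e-11 to 0.865 over 13 alternatives. Without EMT6-PTR replicate 3 it was 4.45. Its partner chain Il18rap, the next gene, was at 79.8, 66.1 and 79.0 CPM in EMT6-P and at 67.2, 46.6 and 25.8 CPM in EMT6-PTR (log2 fold change -0.69, SE 0.33, edgeR, adjusted p = 0.468).

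Il1r2, Il1r1, Il1rl2, Il1rl1, Il18r1 and Il18rap follow each other on chromosome 1. In these data the cluster did not move together. Il1rl1 was lower and its neighbor Il18r1 higher in every EMT6-PTR tumor, and Il1r2 at the other end of the cluster was within 1.57-fold among the 3 EMT6-PTR tumors. In the metastasis, Il18r1 was at 87.5 CPM and Il1r2 at 311 CPM, whereas Il1rl1 was at 13.7 CPM.

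**Figure D3:**
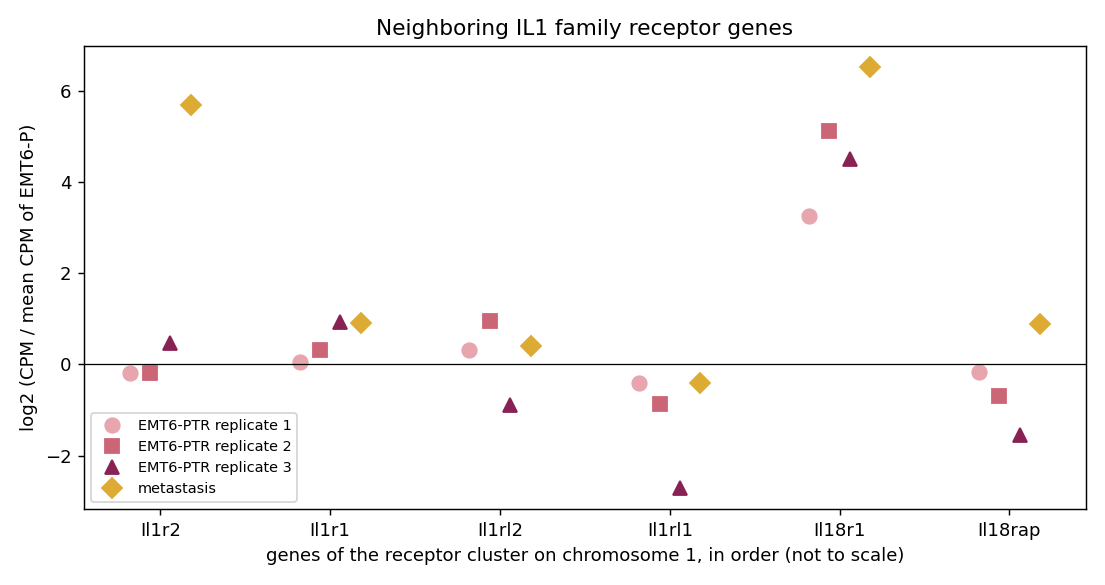
Log2 of the CPM over the EMT6-P mean for 6 neighboring receptor genes on chromosome 1, in genome order and not to scale, in the 3 EMT6-PTR tumors and the metastasis. Il18r1 lies above 0 and Il1rl1 below 0 in all 4 libraries, and Il1r2 stands high only in the metastasis among these 4.

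Of the inflammasome, signaling and target genes, edgeR and DESeq2 called 0. Of 11 inflammasome genes, which process IL1β and IL18, Aim2, a DNA sensor, was the only gene with an unadjusted p under 0.05 (log2 fold change 0.85, SE 0.32, edgeR, adjusted p = 0.427). The adaptor Pycard did not overlap between the groups and was lower in EMT6-PTR (log2 fold change -0.75, SE 0.35, edgeR, adjusted p = 0.457). It was the only gene of the 11 to do so, against 11.8% of all genes. Of 16 genes that carry the receptor signal to NF-kB, 12 had log2 fold changes above 0, against 52.3% of all genes. Map3k7, the kinase TAK1, had the smallest p (log2 fold change 0.34, SE 0.14, edgeR, adjusted p = 0.437). Of 20 genes known to be induced by IL1, 19 were tested, 11 above and 8 below 0 with a median of 0.13, and none had an unadjusted p under 0.05 by edgeR.

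The order of the members within a group was read from levels per kilobase of exon, which depend on the exon length taken for each gene. In EMT6-P, Il1b (15.5 ± 4.25 CPM per kilobase, SD, n = 3) and Il18 (14.2 ± 4.75) came first with overlapping ranges, followed by Il1r1 (6.75 ± 0.65) and Il1rn (6.67 ± 2.19), whose ranges also overlapped. Il1r2 (3.17 ± 0.51) did not overlap Il1rn above it or Il1rl1 below it in this order, but its range overlapped those of Il18bp and Il1rap. Il1rl1, Il18bp, Il1rap, Il33 and Il1a, from 2.62 to 1.28, each overlapped the next. In EMT6-PTR, Il33 came first (28.4 ± 30.6 CPM per kilobase, SD, n = 3) but overlapped Il1b (19.5 ± 16.8), which in turn overlapped Il18 (11.2 ± 4.40). Il33 was ninth of the members in EMT6-P.

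EMT6-PTR tumors varied more among themselves than EMT6-P tumors. The fold between the highest and the lowest tumor was larger in EMT6-PTR for 9 of 10 members, and Il1rap was the exception. Among tested genes with a count in every primary tumor, it was larger in EMT6-PTR for 82.8%. The highest EMT6-PTR tumor exceeded the lowest 28.1-fold for Il1b and 16.9-fold for Il1a, against 1.73 and 5.05-fold within EMT6-P. Both lows were EMT6-PTR replicate 3, the tumor with the most Il33.

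**Figure D4:**
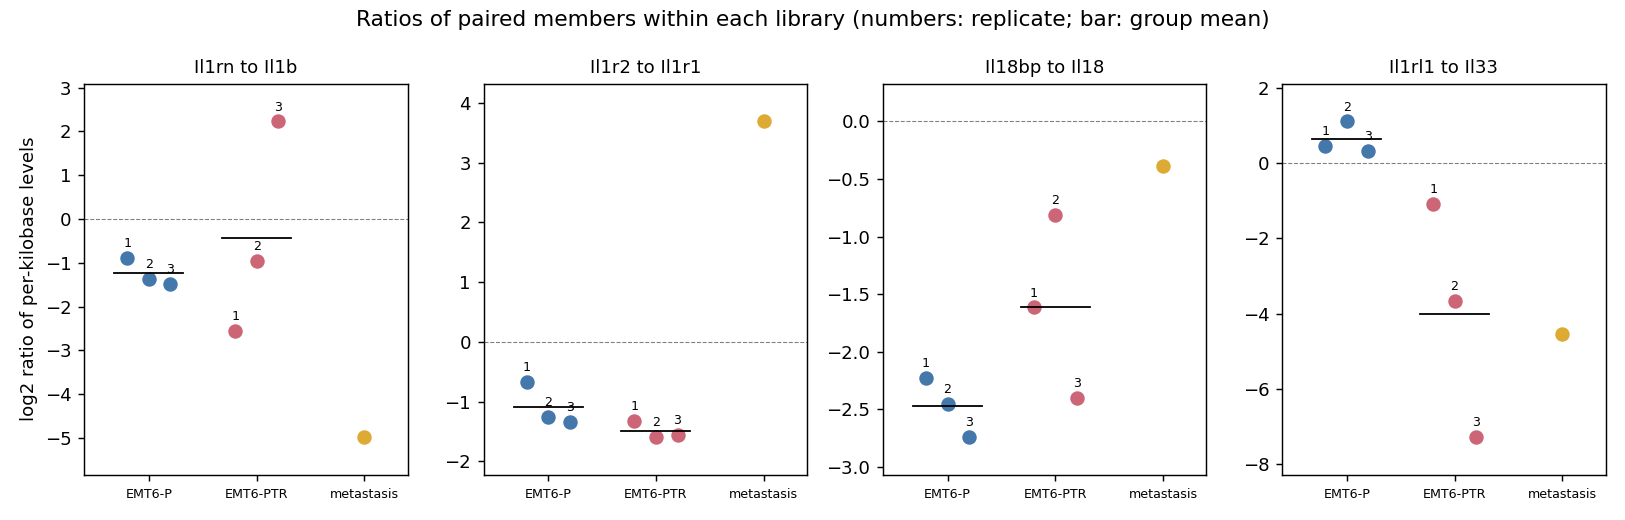
Log2 ratio of per-kilobase levels of 4 pairs of members within each library (a separate range per panel), with replicate numbers and group means as bars; the dashed line marks equal levels. Il1rl1 to Il33 is above 0 in all 3 EMT6-P tumors and below 0 in the other 4 libraries, and the metastasis has -4.98 for Il1rn to Il1b and 3.69 for Il1r2 to Il1r1.

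The metastasis was compared with the EMT6-PTR tumors by value, with no test, since it has no replicate. It lay above all 3 EMT6-PTR tumors for 7 of 10 members and below all 3 for 0 of 10, against 25.8% and 29.0% of all genes. At least 4-fold above the EMT6-PTR mean were 3 members, against 4.14% of all genes: Il1a, Il1b and the decoy Il1r2. Il18, Il33 and Il1r1 were inside the EMT6-PTR range.

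Il1b reached 1252 CPM in the metastasis, 33.8-fold above the EMT6-PTR mean and 19.1-fold above the highest EMT6-PTR tumor. Il1a reached 111 CPM, 51.3-fold above the mean, and Il1r2 reached 311 CPM, 49.1-fold above it. The antagonist Il1rn was at 115 CPM, 2.67-fold above the mean. The signaling receptor Il1r1 was at 80.4 CPM, just below EMT6-PTR replicate 3. Per kilobase, Il1b exceeded Il1rn 31.5-fold, and Il1r2 exceeded Il1r1 12.9-fold, whereas in all 6 primary tumors Il1r2 was below Il1r1. The size of both folds depends on the exon length taken for each gene. In estimated counts, the metastasis had 31505 for Il1b and 2899 for Il1rn, and 7828 for Il1r2 and 2023 for Il1r1.

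The remaining members were closer to the primary tumors. Il18bp was at 22.3 CPM, 2.01-fold above the EMT6-PTR mean, Il1rap at 24.2 CPM and Il1rl1 at 13.7 CPM, the last 2 above the highest EMT6-PTR tumor by factors of 1.14 and 1.00. Il18 was at 9.93 CPM. Per kilobase, Il1b led in the metastasis with 657 CPM, followed by Il1r2 with 163 and Il1a with 56.1, and Il1rl1 was last with 1.98.

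Neutrophil markers moved with the metastasis values. Their summed level over 11 genes, which included the family member Il36g, was 47.0 to 102 CPM in EMT6-P, 51.9 to 80.0 CPM in EMT6-PTR and 3454 CPM in the metastasis, 49.3-fold above the EMT6-PTR mean, and all 9 tested genes of the list were at least 4-fold above that mean. None of the 11 was at 0 counts in the metastasis. The macrophage sum was 2597 to 4258 CPM in EMT6-PTR and 5108 CPM in the metastasis, 1.47-fold above the mean, and the endothelial sum was 6.05-fold above it. The red cell sum was 7739 CPM in the metastasis, 37.7-fold above the EMT6-PTR mean, and the mast cell sum was 233 CPM, 15.2-fold above it. Most of that mast cell sum was Hdc, at 195 CPM, and Kit, at 33.8 CPM, while Mcpt8 was at 0.119 CPM. Of the 20 IL1-induced genes, 15 lay above all EMT6-PTR tumors in the metastasis, against 25.8% of all genes. At least 4-fold above the EMT6-PTR mean were 10 of them, against 4.14% of all genes. Saa3, an acute-phase protein, was 16.0-fold and Lcn2, a neutrophil and epithelial iron-binding protein, 6.94-fold above it. The part of neutrophils, macrophages, mast cells, endothelial cells, blood and lung tissue in these values was not tested.

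**Figure D5:**
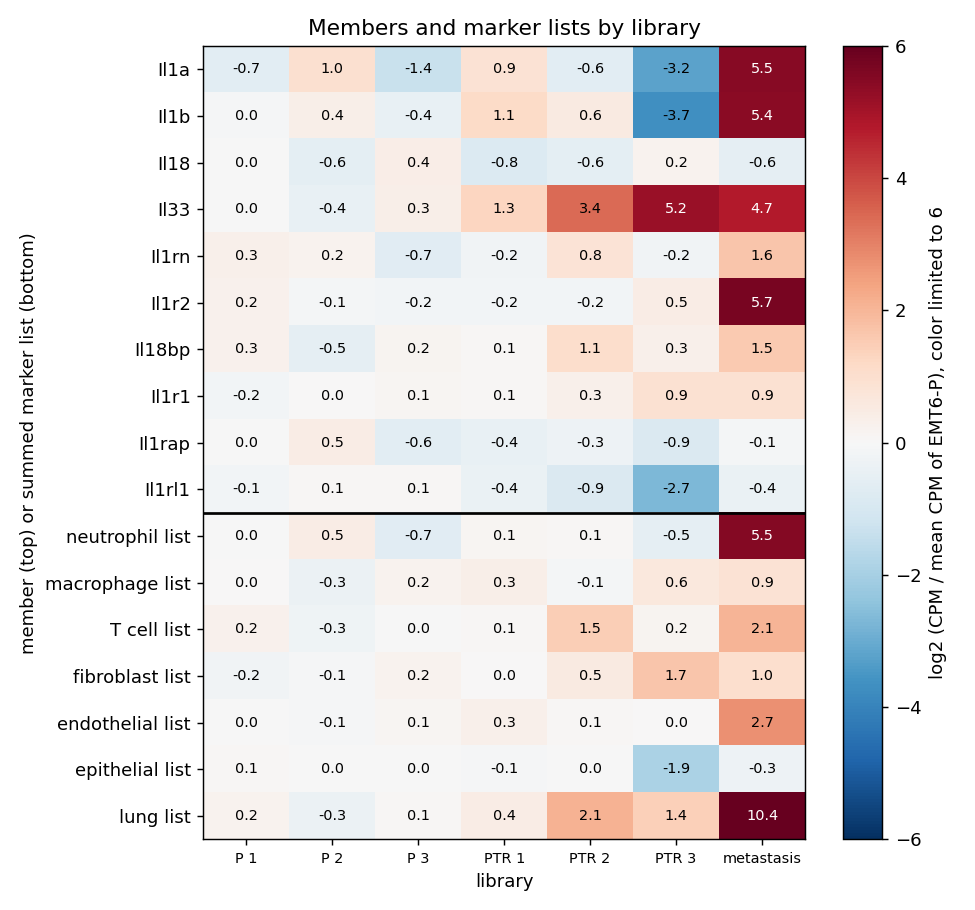
Log2 of the CPM over the EMT6-P mean for the 10 members (top) and for summed marker lists (bottom) in each of 7 libraries; cells print the value and the color is limited to 6. Il1a, Il1b, Il1r2 and the neutrophil list are all high in the metastasis, and in EMT6-PTR replicate 3 Il33 and the fibroblast list are high while Il1a, Il1b, Il1rl1 and the epithelial list are low.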

How the data were processed

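The authors prepared stranded libraries from polyadenylated RNA, checked reads with FastQC 0.11.5, aligned them with STAR 2.6.0a to GRCm38 and estimated counts per gene with RSEM 1.3.1, per the methods and the submitters' processing notes. The deposited values are these expected counts, not normalized, in 7 columns. The depth of 20430110 to 25213472 counts sets the precision, and a count of 0 allows up to 3 counts (counting error only). Estimated counts were rounded. After filterByExpr, edgeR 4.0.16 (R 4.3.3) compared 3 EMT6-PTR with 3 EMT6-P tumors by glmQLFTest with upper-quartile factors. Benjamini-Hochberg adjusted p-values under 0.05 were called. The standard error is the fold change divided by the square root of F. Ratios of members used a prior of 0.5 counts, the union of GENCODE exons as length and exact permutation tests (scipy 1.17.1). Alternatives were DESeq2 1.42.0, limma-voom (limma 3.58.1), TMM scaling, other filters on low counts, a fit that includes the metastasis, a replicate block and each tumor left out. The fits were tested on simulated data with the same dispersion in both groups, so the unequal spread of these groups was not covered. The text names all 10 members, up to 3 genes per list with the smallest p, and for 4 members the 3 genes most like them. The other genes named, CT010467.1, Il1rl2 and Il36g, were chosen after their values were seen. The members, lists and tests were chosen with earlier results of these data known. RefSeq promoter windows matched 10 of 10 members, and symbols matched 187 of 187 list genes, 4 through older symbols. Plots were drawn with matplotlib 3.10.9.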

Additional observations from a re-analysis of the deposited data

How the results depend on the processing

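With DESeq2, 281 genes and 1 member (Il33) were called in place of 0 and 0 by edgeR; the cause was not tested. TMM scaling, limma-voom, both filters, the metastasis in the fit and each tumor left out gave 0 called genes and 0 called members (edgeR or limma). The direction of Il18, Il33, Il1r1, Il1rap, Il1rl1 and Il18bp held under all 13 alternatives. The log2 fold change of Il1b turned to -0.73 with limma-voom, -0.43 with the replicate block and -0.38 without EMT6-PTR replicate 1. With single tumors left out, that of Il1a ranged from -1.45 to 0.74, Il1b from -0.38 to 0.88, Il1rn from -0.20 to 0.40 and Il1r2 from -0.18 to 0.21. The ratio of Il1rn to Il1b ranged from -0.52 to 1.88, and the directions of the other 3 ratios held. Same-numbered tumors deviated together with correlations of 0.26, 0.24 and 0.03, against -0.28 to 0.10 for differently numbered tumors. These values do not settle whether the numbers are pairs, and the labels give no pairing, so the main fit used none. The replicate block left 0 genes called by edgeR, with 1268 at an unadjusted p under 0.05 against 1786 in the main fit. The count of members for which the metastasis lay outside the EMT6-PTR range was 7, 6 with counts scaled by the total alone and 10 without EMT6-PTR replicate 3. The spread among EMT6-PTR tumors limits the comparison: the common dispersion was 0.246 in EMT6-PTR and 0.0266 in EMT6-P.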

Other observations

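The genes whose levels were most like 4 of the members across the 6 primary tumors are given as a description. Likeness is Pearson's r of log2 CPM over 11441 genes with a mean of at least 5 CPM, and the points share libraries, of which EMT6-PTR replicate 3 is an extreme for Il33, Il1b and Il1rl1. For Il33 they were the fibroblast gene Pi16, Rapsn and Zfp532 (r from 0.996 to 0.997), and r was 0.940 to 0.978 without the 2 tumors farthest from the median of Il33. Rapsn, which clusters acetylcholine receptors at the muscle synapse, was at 3.49, 3.48 and 3.71 CPM in EMT6-P and at 4.69, 7.86 and 11.1 CPM in EMT6-PTR. For Il1b they were Itpripl2, Edem1 and Ccdc88b (r from 0.997 to 0.998), and for Il1rl1 they were Yeats4, Slc38a10 and Dpagt1 (r of 0.997). Edem1 and Dpagt1 act in protein glycosylation and quality control of the endoplasmic reticulum. For Il1rn they were Daxx, Gm6560 and Peak1 (r from 0.976 to 0.995). Daxx was at 29.2, 27.4 and 21.2 CPM in EMT6-P and at 24.9, 35.1 and 24.6 CPM in EMT6-PTR, with the highest value in the tumor with the most Il1rn. Among the members themselves, r with Il33 was -0.94 for Il1rl1, and -0.82 without the same 2 tumors. The r with Il33 of 0.92 for Il1r1 fell to 0.31 without them, and that of -0.66 for Il1b turned to 0.59, so these relations rest on those tumors.

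Il36g, an IL36 ligand, was at 3 to 20 counts in the primary tumors, too few to be tested, and at 1422 counts in the metastasis. The genes Il36a, Il36b, Il36rn, Il1f10, Il1rapl1 and Il1rapl2 were at 0 counts in all 6 primary tumors.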
